A study of Mus musculus
Mus spretus with 18 samples.

Results

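The MAP kinase cascade genes were taken as every gene whose symbol is Mapk, Map2k, Map3k or Map4k followed by digits alone. This rule uses names only and found 42 of 38924 genes in the expression table, or 41 symbols: 13 MAPKs, 7 MAP2Ks, 16 MAP3Ks and 5 MAP4Ks. Map3k4 stood there under 2 identifiers, and the second was listed at 0.124 TPM or less in every library. Expression of Map3k4 below is that of the first. The same symbols held 530 of 125200 skipped exon (SE) events and 15 of 2243 retained intron (RI) events. Events were taken by symbol alone, and those of Map3k4 lay on both strands. The libraries came from F1 hybrids of a C57BL/6J mother and a SPRET/EiJ father, so that each cell carried 1 allele of either strain. Cerebral cortex, heart, kidney, lung, spleen and liver of mice aged 8 weeks and F1 embryonic stem cells (ESC) had 2 libraries each. The liver libraries were made in an earlier study of the same group, and their labels carry other strain names than those of the other organs. The paper states that heart, kidney and cortex had longer reads than spleen, lung and ESC, trimmed to the same length before alignment. Tissue and sequencing can therefore not be fully told apart. The ESC pair were independent clones, cultured cells rather than an organ, and are called a tissue here for brevity. A fibroblast line of the same hybrid was treated for 4 h with DMSO, the solvent, or with 0.1 µM pladienolide B, a compound that binds the SF3B complex of the U2 snRNP, with 2 libraries each. All organs were taken from the same 2 mice, so that libraries of different organs share animals. Nothing says whether the fibroblast libraries came from separate cultures, so that their p-values may measure technical spread alone.

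In a MAP kinase cascade each kinase phosphorylates and thereby activates the next. MAP3Ks, and above some of them MAP4Ks, respond to receptors, Ras family GTPases and stress. They activate MAP2Ks, and each MAP2K activates a small set of MAPKs. MAP2K1 and MAP2K2 act on ERK kinases such as MAPK3, which drive growth and differentiation. MAP2K4 and MAP2K7 act on the JNKs MAPK8, MAPK9 and MAPK10, and MAP2K3 and MAP2K6 act on the p38 kinases MAPK11 to MAPK14, which answer to stress and cytokines. MAP2K5 acts on MAPK7, also called ERK5. MAPK4, MAPK6 and MAPK15 are atypical members. Many of these kinases are made in several forms through alternative splicing. It is measured below as percent spliced in (PSI), here between 0 and 1. PSI sets junction reads that include an exon against those that skip it between the same neighbouring exons. It is therefore a value of 1 event and not a share of all transcripts of the gene.

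Junction reads per library totalled 46558287 to 129496306 in the tissues and 129067054 to 151755602 in the fibroblasts. Replicates correlated at r = 0.965 in ESC and at 0.989 or more elsewhere, on log2(TPM + 0.1) across genes, which are not independent replicates. All 22 tissue markers were highest in the tissue they mark. The summed heart markers reached 375.9 to 479.7 TPM in lung, against 31002 to 31326 in heart, and their part in the results below was not tested. Of the liver markers, Ttr averaged 1323 TPM in cortex, where Alb (0.0948 TPM) and Apoa1 (0.591 TPM) were near 0. The leukocyte marker Ptprc was at 347 to 382 TPM in spleen, 21.8 to 26.1 TPM in lung and 5.24 TPM or less in the other tissue libraries. Maternally expressed Meg3 and Rian had 98.97% and 99.74% of their allelic junction reads on C57BL/6J, and paternally expressed Snrpn and Peg3 had 0.062% and 0.365%.

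Expression was first compared among the 7 tissues. Values in TPM, the usual transcript abundance unit, are scaled by gene length and library total, so levels of different genes can be set side by side. Of the 42 rows, 41 reached 1 TPM in both libraries of a tissue. All 41 differed among tissues at an adjusted p under 0.05 (limma F test), as did 99.6% of all 21772 genes tested, so the test by itself says little about the cascade. Among the MAPKs the highest mean level was that of Mapk3, the ERK1 gene, with TPM values of 446 and 429.5 in lung, 186 and 178 in cortex, 103 and 105 in kidney, 113 and 87.2 in spleen, 72.4 and 73.5 in heart, 43.2 and 43.6 in ESC and 32.3 and 28.8 in liver. Lung lay above every other library and liver below, and kidney and spleen overlapped. Among the MAP2Ks, Map2k1 led with TPM values of 238 and 257 in cortex, 157 and 121 in ESC, 70.7 and 63.6 in spleen, 55 and 57.2 in lung, 52 and 52.3 in kidney, 43 and 43.3 in heart and 33.9 and 33.4 in liver. The cortex pair did not overlap with ESC, nor ESC with spleen. Among the MAP3Ks, Map3k3, which acts upstream of the ERK5 and p38 branches, led with TPM values of 74.6 and 77 in lung, 60.1 and 52 in spleen, 54.5 and 52.1 in ESC, 34.9 and 36.6 in heart, 34.9 and 32.9 in kidney, 27.3 and 27.3 in cortex and 6.7 and 7.27 in liver. Spleen and ESC were neighbours in that order whose libraries overlapped, as were heart and kidney. Map4k4 led the MAP4Ks with TPM values of 155 and 80.3 in ESC, 86 and 82.4 in cortex, 82.4 and 82 in heart, 85.6 and 78.2 in lung, 86.8 and 65.8 in spleen, 27.7 and 27.8 in kidney and 6.92 and 7.57 in liver. There the clones of ESC lay far apart, their range overlapped with those of cortex, heart, lung and spleen, and kidney and liver stood below all of these. In bulk tissue, fewer cells of a type and less RNA per cell cannot be told apart.

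**Figure D1:**
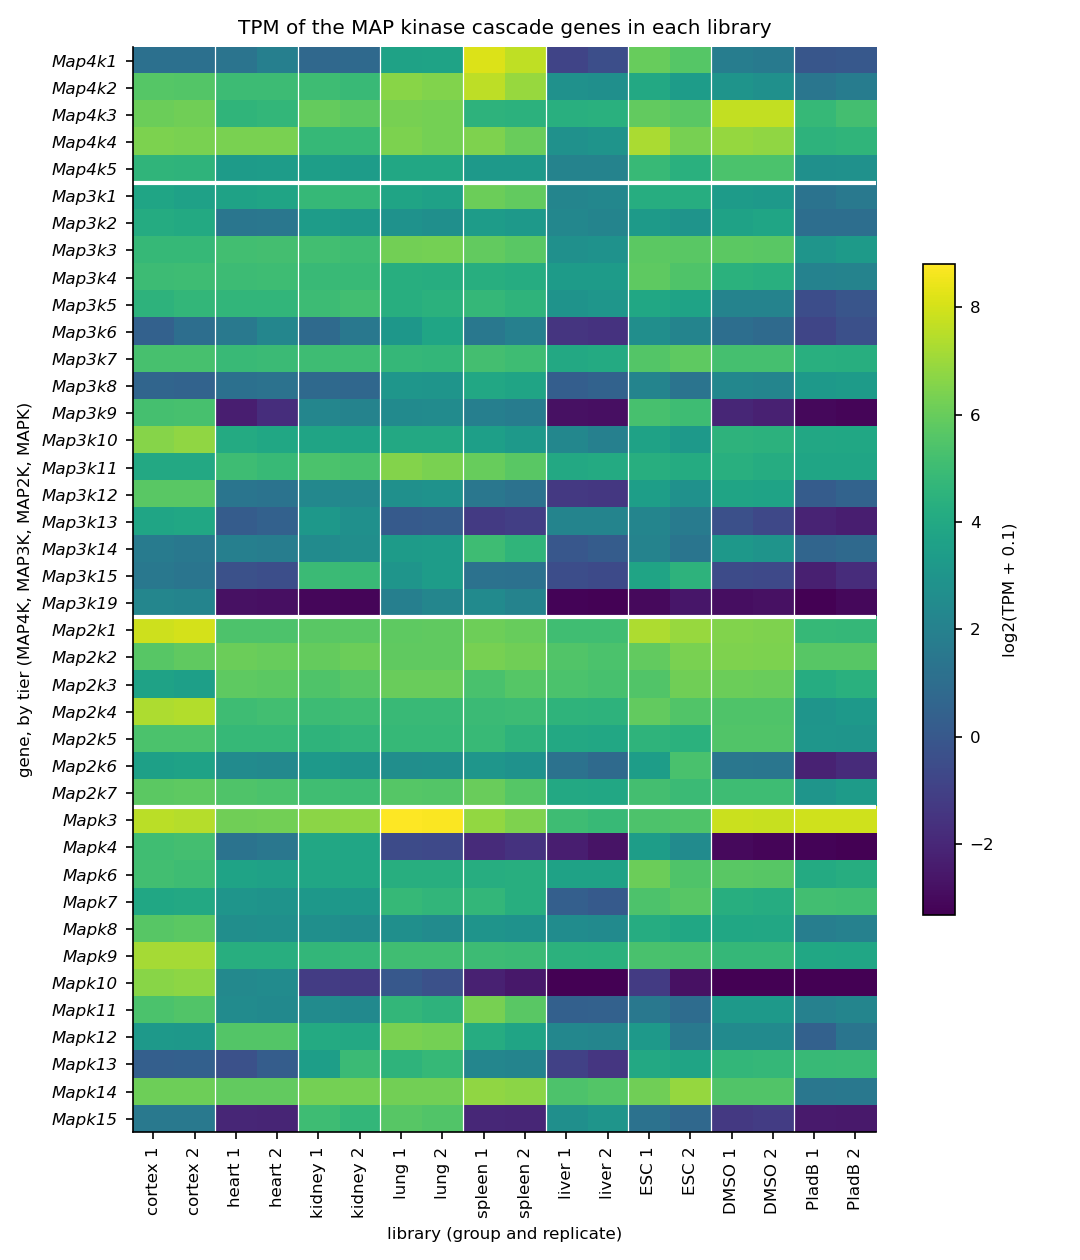
Heat map of log2(TPM + 0.1) for the cascade genes reported here (rows, by tier) in each of the 18 libraries (columns). Bright cells mark Mapk3 in lung, Mapk10 in cortex, Map4k1 in spleen and Map4k3 in DMSO fibroblasts, and the liver and pladienolide B columns are dark for most rows.

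Cortex was the highest tissue for 13 of the 41 genes, spleen for 10, lung for 9, ESC for 7 and kidney for 2. No member was highest in heart or liver. Liver was the lowest tissue for 34 of 41 members, and for 52.3% of all genes tested. Both libraries of the highest tissue lay above every other tissue library for 31 of 41 members, and for 83.8% of all genes. In the contrasts that follow, a tissue was set against the mean of the other 6 on log2(TPM + 0.1), and a call needs an adjusted p under 0.05 (limma, over all genes tested) and a difference of 1 or more. The median of all genes in these contrasts ran from -1.52 in liver to 0.38 in cortex, so the counts of each tissue stand beside the shares of all genes called. Where the libraries were instead centred on their medians, differences moved by 1.77 in liver, -0.88 in cortex, 0.67 in heart, -0.54 in lung, -0.49 in spleen, -0.36 in ESC and -0.16 in kidney.

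In cortex 16 of 41 members were higher, or 35.4% of all genes, and 5 were lower, or 20.2% of all genes. Members of every tier were among those higher, with 7 MAPKs, 6 MAP3Ks, 2 MAP2Ks and 1 MAP4K. Mapk10, the JNK3 gene known for its expression in neurons, was at 99.3 and 106 TPM in cortex, against 0 to 5.58 TPM (median 0.318) in the other 12 libraries, a log2 difference of 7.79 ± 0.31 (SE; adjusted p = 6.42e-09). Mapk4 was at 33.8 and 36.7 TPM in cortex, against 0.0576 to 15.5 TPM (median 1.46) in the other 12 libraries, a log2 difference of 4.56 ± 0.21 (SE; adjusted p = 2.21e-08). Map3k9, a mixed-lineage kinase, was at 37.6 and 39.2 TPM in cortex, against 0.0412 to 38.5 TPM (median 3.97) in the other 12 libraries, a log2 difference of 4.12 ± 0.15 (SE; adjusted p = 4.26e-09). Of these, Mapk10 and Mapk4 were apart from every other library, while Map3k9 overlapped with ESC. Map3k12, a kinase known from axon injury responses that feeds the JNK branch, was at 51.2 and 52.2 TPM in cortex, against 0.296 to 11.1 TPM (median 3.83) in the other 12 libraries, a log2 difference of 4.08 ± 0.16 (SE; adjusted p = 4.95e-09). Mapk10 was listed at 0 TPM in liver, so its fitted value depends on the pseudocount. Others that were higher were Map3k19 (3.46), Map3k10 (3.25), Map3k13 (2.80), Mapk8 (2.78), Mapk11 (2.56), Mapk9 (2.38), Map2k4 (2.32), Map2k1 (2.08), Map3k2 (1.39), Map4k5 (1.12) and Mapk3 (1.06). The members lower in cortex were Map2k3 (-2.05), Map4k1 (-2.05), Mapk13 (-1.94), Map3k8 (-1.24) and Map3k11 (-1.14). Map2k3, which activates p38, was at 12.8 and 11.6 TPM in cortex, against 39.2 to 72.3 TPM (median 49.2) in the other 12 libraries. With centred libraries 13 members were higher and 13 lower (22.9% and 37.1% of all genes). Without both ESC libraries the difference of Mapk3 fell under the size limit, to 0.86.

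Spleen had 9 members higher, against 26.7% of all genes, and 5 lower, against 22.2%. Map4k1, a kinase of blood cells that restrains signalling from lymphocyte receptors, was at 286 and 203 TPM in spleen, against 0.453 to 62.8 TPM (median 2.28) in the other 12 libraries, a log2 difference of 5.84 ± 0.18 (SE; adjusted p = 6.89e-09). Its spleen level was above that of every other library, ESC included. Mapk11, the p38 beta gene, was at 79.3 and 51.7 TPM in spleen, against 1.21 to 45.2 TPM (median 5.45) in the other 12 libraries, a log2 difference of 3.23 ± 0.17 (SE; adjusted p = 9.55e-08). Map3k14, which acts in the alternative NF-kB pathway, was at 32.8 and 24.5 TPM in spleen, against 0.882 to 10.2 TPM (median 3.56) in the other 12 libraries, a log2 difference of 2.95 ± 0.17 (SE; adjusted p = 2.26e-07). The others that were higher were Map3k19 (3.58), Map3k8 (2.55), Map4k2 (2.50), Map3k1 (2.27), Mapk7 (1.07) and Map3k11 (1.01). Map3k8 is known for relaying Toll-like receptor signals to ERK in immune cells, and Map4k2 is a germinal centre kinase. Ptprc too was highest in spleen, and the blood marker was at 295 to 1086 TPM there and at 686 TPM or less in the other tissues; their part was not tested. With centred libraries 7 members were higher and 8 lower (18.5% and 32.8% of all genes). Lower in spleen were Mapk15 (-4.31), Mapk4 (-3.41), Map3k13 (-3.06), Mapk10 (-2.77) and Map4k3 (-1.01). The calls of Mapk7 and Map3k11 ended without the first spleen library (0.876 and 0.866), and Map4k3 fell under the limit without the second (-0.981). Map3k11 also fell just under 1 without any of 4 further libraries (0.991 to 0.999: the second of heart, kidney, lung and ESC), as Map4k3 did without the first kidney (-0.99) or ESC (-0.993) library. Without both ESC libraries Map3k11 was at 0.881 and Map4k3 at -0.952.

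In lung 15 members were higher, with 25.9% of all genes, and 2 were lower, with 14.9%. Mapk15, an atypical kinase known from ciliated cells, was at 50.2 and 45 TPM in lung, against 0.139 to 33.2 TPM (median 2.55) in the other 12 libraries, a log2 difference of 4.53 ± 0.15 (SE; adjusted p = 7.97e-09). Mapk13, the p38 delta gene of epithelia, was at 23.8 and 28.2 TPM in lung, against 0.282 to 30.8 TPM (median 2.8) in the other 12 libraries, a log2 difference of 3.12 ± 0.31 (SE; adjusted p = 1.09e-05). Mapk12, the p38 gamma gene known from striated muscle, was at 83.4 and 76.6 TPM in lung, against 2.9 to 47.4 TPM (median 11.2) in the other 12 libraries, a log2 difference of 2.76 ± 0.30 (SE; adjusted p = 2.41e-05). Its lung level was above that of heart. Mapk3 had a log2 difference of 2.54 ± 0.09 (SE; adjusted p = 8.77e-09). The remaining genes higher in lung were Map3k19 (3.33), Map3k6 (2.35), Map3k11 (1.74), Map4k2 (1.70), Mapk11 (1.61), Map3k8 (1.60), Map3k15 (1.37), Map3k3 (1.35), Mapk7 (1.34), Map3k14 (1.23) and Map4k3 (1.08). Lower were Mapk4 (-2.15) and Map3k13 (-1.52). With centred libraries 10 members were higher and 5 lower (18.4% and 27.1% of all genes). The endothelial marker was at 361 to 398 TPM in lung and 120.3 TPM or less in the other tissues, and its part was not tested. No call in lung was lost on leaving out 1 library.

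Kidney had 5 members higher (16.7% of all genes) and 5 lower (18.6%). Map3k15, an ASK family stress kinase on the X chromosome, was at 31 and 29.9 TPM in kidney, against 0.554 to 23 TPM (median 2.41) in the other 12 libraries, a log2 difference of 3.41 ± 0.18 (SE; adjusted p = 1.31e-07). Mapk15 was at 33.2 and 26.4 TPM in kidney, against 0.139 to 50.2 TPM (median 2.55) in the other 12 libraries, a log2 difference of 3.73 ± 0.15 (SE; adjusted p = 2.1e-08). Mapk4 was at 15.5 and 14.4 TPM in kidney, against 0.0576 to 36.7 TPM (median 1.46) in the other 12 libraries, a log2 difference of 3.12 ± 0.21 (SE; adjusted p = 1.06e-06). Only Map3k15 was apart from every other library among these. Mapk13 (2.55) had kidney libraries that were far from each other, at 11 and 30.8 TPM, and Map3k13 (1.74) was the fifth. With centred libraries 5 members were higher and 6 lower (14.7% and 22.5% of all genes). Lower were Map3k19 (-2.75), Map4k1 (-2.44), Mapk10 (-1.44), Map4k4 (-1.04) and Map3k8 (-1.02). Map3k19 was at 0.0642 TPM or less in kidney, heart, liver and ESC alike, and was called lower in each. Mapk10 was at 0.341 and 0.311 TPM in kidney, above spleen and liver, against a median of 0.513 TPM in the other 12 libraries. Differences of genes this low depend on the pseudocount in every tissue. Map3k8 fell under the limit without the second kidney (-0.956) or the first ESC library (-0.95), and Map4k4 without the first ESC library (-0.962) or both (-0.848).

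Heart had 2 members higher (11.6% of all genes) and 10 lower (37.5%). Mapk10 was at 5.08 and 5.58 TPM in heart, against 0 to 106 TPM (median 0.318) in the other 12 libraries, a log2 difference of 2.84 ± 0.31 (SE; adjusted p = 1.67e-05). Mapk12 was at 47.4 and 46.9 TPM in heart, against 2.9 to 83.4 TPM (median 11.2) in the other 12 libraries, a log2 difference of 1.87 ± 0.30 (SE; adjusted p = 0.00028). Each stood second among the tissues, Mapk10 after cortex and Mapk12 after lung. The members lower in heart were Map3k9 (-4.37), Mapk15 (-4.37), Map3k15 (-2.78), Mapk13 (-2.38), Map3k19 (-2.37), Map3k2 (-1.66), Map4k1 (-1.49), Map3k13 (-1.32), Map3k12 (-1.01) and Mapk9 (-1.01), led by Map3k9 at 0.101 and 0.205 TPM. With centred libraries 7 were higher and 5 lower (19.9% and 18.1% of all genes). Without the first heart library the difference of Mapk9 fell just under the limit (-1.0 after rounding). Map3k12 fell under it without the second heart, the second lung, the first spleen or the first ESC library (-0.949 to -0.999), and without both ESC libraries Map3k12 was at -0.847 and Map4k1 at -0.957.

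In liver 30 of 41 members were lower, beside 67.5% of all genes, and 1 was higher, beside 8.01%. Mapk15, the exception, was at 6.48 and 7.95 TPM in liver, against 0.139 to 50.2 TPM (median 2.55) in the other 12 libraries, a log2 difference of 1.36 ± 0.15 (SE; adjusted p = 9.87e-06). Map3k9 fell furthest, with 0.0448 and 0.0412 TPM in liver, against 0.101 to 39.2 TPM (median 5.05) in the other 12 libraries, a log2 difference of -5.29 ± 0.15 (SE; adjusted p = 8.54e-10). Mapk7 was at 1.17 and 0.994 TPM in liver, against 7.5 to 49.4 TPM (median 17.6) in the other 12 libraries, a log2 difference of -3.89 ± 0.11 (SE; adjusted p = 7.55e-10). Map4k4 was at 6.92 and 7.57 TPM in liver, against 27.7 to 155 TPM (median 82.2) in the other 12 libraries, a log2 difference of -3.28 ± 0.19 (SE; adjusted p = 7.64e-08). All 5 MAP4Ks, 14 of 16 MAP3Ks, 8 of 13 MAPKs and 3 of 7 MAP2Ks were lower. Among them, after Map3k9, were Mapk4 (-4.34), Map4k1 (-4.13), Map3k12 (-4.11), Mapk13 (-3.73), Map3k6 (-3.42), Mapk11 (-3.29), Map3k15 (-2.96), Map3k19 (-2.86), Map4k2 (-2.73), Map3k3 (-2.65), Map3k14 (-2.57), Map2k6 (-2.14), Map3k1 (-2.12), Map3k10 (-2.09), Mapk12 (-1.98), Mapk3 (-1.94), Map4k5 (-1.76), Map3k5 (-1.57), Map3k4 (-1.52), Map2k7 (-1.48), Map3k8 (-1.47), Map2k1 (-1.27), Map4k3 (-1.17), Map3k7 (-1.09) and Map3k11 (-1.07). Mapk10 was listed at 0 TPM in both liver libraries, so no difference is given for it. The direction depends on the scaling. With centred libraries 12 members were lower and 4 higher (18.0% and 25.1% of all genes). On that scale the differences of Map3k11, Map3k7, Map4k3, Map2k1, Map3k8, Map2k7, Map3k4, Map3k5 and Map4k5 were above 0. Mapk15 stayed higher there, at 3.13, and Map3k9 lower, at -3.52. Without both ESC libraries Map3k7 was at -0.984.

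In ESC 14 members were higher (35.6% of all genes) and 6 lower (25.1%). Map3k9 was at 38.5 and 32.4 TPM in ESC, against 0.0412 to 39.2 TPM (median 3.97) in the other 12 libraries, a log2 difference of 3.98 ± 0.15 (SE; adjusted p = 6.47e-09). Map4k1 was at 62.8 and 48.2 TPM in ESC, against 0.453 to 286 TPM (median 2.28) in the other 12 libraries, a log2 difference of 3.36 ± 0.18 (SE; adjusted p = 6.7e-08). Of the markers of blood cells, Ptprc was at 0.022 TPM or less in ESC, while Cd3e averaged 14.6 TPM there, against 120.3 TPM in spleen, and the 3 lymphocyte markers summed to 4.77 to 26.8 TPM. The part of such cells was not tested. Mapk7 was at 42 and 49.4 TPM in ESC, against 0.994 to 27.6 TPM (median 12) in the other 12 libraries, a log2 difference of 2.26 ± 0.11 (SE; adjusted p = 3.2e-08), apart from every other library. Mapk6 was at 66.9 and 44.6 TPM in ESC, against 12.3 to 34.5 TPM (median 16.8) in the other 12 libraries, a log2 difference of 1.63 ± 0.12 (SE; adjusted p = 4.8e-07). The others that were higher were Map3k15 (2.50), Mapk13 (2.15), Mapk4 (2.04), Map2k6 (1.71), Map4k4 (1.30), Map3k4 (1.20), Map4k5 (1.18), Map3k6 (1.14), Map2k1 (1.10) and Map3k12 (1.10). Map2k6 differed between the clones, at 10.5 and 39.5 TPM, and fell under the size limit without the second (0.756). Without the first clone, Map2k1 (0.914), Map3k12 (0.755), Map4k4 (0.823), Map3k6 (0.867) and Map4k5 (0.937) fell under it. Lower in ESC were Map3k19 (-2.39), Mapk10 (-2.35), Mapk11 (-2.33), Mapk12 (-1.83), Map4k2 (-1.69) and Mapk3 (-1.35). Mapk12 too differed between clones, at 9.1 and 2.9 TPM. With centred libraries 8 members were higher and 9 lower (28.8% and 31.0% of all genes).

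The other genes of the pathway were counted from a list of 58 regulators and targets, of which 56 were tested. All 56 differed among tissues. Counts with centred libraries stand beside the centred shares of all genes given above for each tissue. In cortex 29 were higher and 8 lower (35.4% and 20.2% of all genes), and with centred libraries 17 and 13. In spleen these were 15 and 7 (26.7% and 22.2%), and 8 and 11 when centred. Lung had 17 and 3 (25.9% and 14.9%), and 11 and 9 when centred. Kidney had 5 and 11 (16.7% and 18.6%), and 4 and 12 when centred. In heart the direction turned with the scaling, from 3 higher and 13 lower (11.6% and 37.5%) to 14 and 7. Liver had 0 higher and 50 lower (8.01% and 67.5%), and 4 and 20 when centred. ESC had 20 and 8 (35.6% and 25.1%), and 14 and 12 when centred. In cortex 6 of 7 scaffolds, which hold kinases of a cascade together, were higher, and 5 when centred. The largest differences were those of Mapk8ip2 (9.0), a JNK scaffold, and Ksr2 (5.82), a Raf and MAP2K scaffold. In ESC they were those of the MAPK phosphatase Dusp9 (9.0) and the downstream kinase Rps6ka6 (5.08), with Egr1 (-4.0) and the ERK phosphatase Dusp6 (-2.02) the lowest. In spleen they were those of the phosphatase Dusp2 (6.34) and of Myc (3.87), and in lung of Jun (3.62) and the ERK inhibitor Spry1 (3.57). Kidney had Rps6ka6 (1.93) and Ksr2 (1.92) highest and Tnik (-3.73) and Dusp5 (-2.55) lowest, and heart Dusp8 (2.52) and Mapkapk2 (2.32) highest and Dusp9 (-4.03) and Ksr2 (-3.33) lowest. In liver Dusp8 (-5.25) and Rps6ka2 (-5.18) were lowest.

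Alternative splicing among the tissues was then compared over SE events with 20 or more junction reads in both libraries of 2 or more tissues. The switch score is the largest difference in mean PSI between any pair of tissues, and an event was called with an adjusted p under 0.05 (quasi-binomial F test) and a switch score of 0.1 or more. Of 530 member events, 205 in 37 genes were tested and 18 were called, or 8.78%, beside the 7.57% of all 47963 events tested. Events of Map3k15 on the X chromosome (9) were left out, and Map3k13, Map3k19 and Mapk7 had no event with enough reads. The 18 events lay in 12 genes and on 17 different alternative exons, because 2 events of Map4k4 share 1 exon. Of the 205 tested, 31 (15.1%) had an unadjusted p under 0.05, against 17.1% of all. By switch score alone 7 of the 205 were Switch-Like (0.5 or more) and all 7 were called, 8 were Moderate-High (0.3 to 0.5; 7 called), 3 Moderate-Low (0.2 to 0.3; 1 called), 5 Low (0.1 to 0.2; 3 called) and 182 Non-Differential. Of the 17 exons 12 (70.6%) have a length that is a multiple of 3, which leaves the reading frame downstream as it was, against 59.5% of all exons called and 41.5% of all tested. Exons of 30 bp or less were 5 of the 17 (29.4%), against 9.65% of all called. Of the 173 member exons tested, 11 (6.36%) were that short, against 1.93% of all tested. A multiple of 3 was the length of 66 of these 173 (38.15%).

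**Figure D2:**
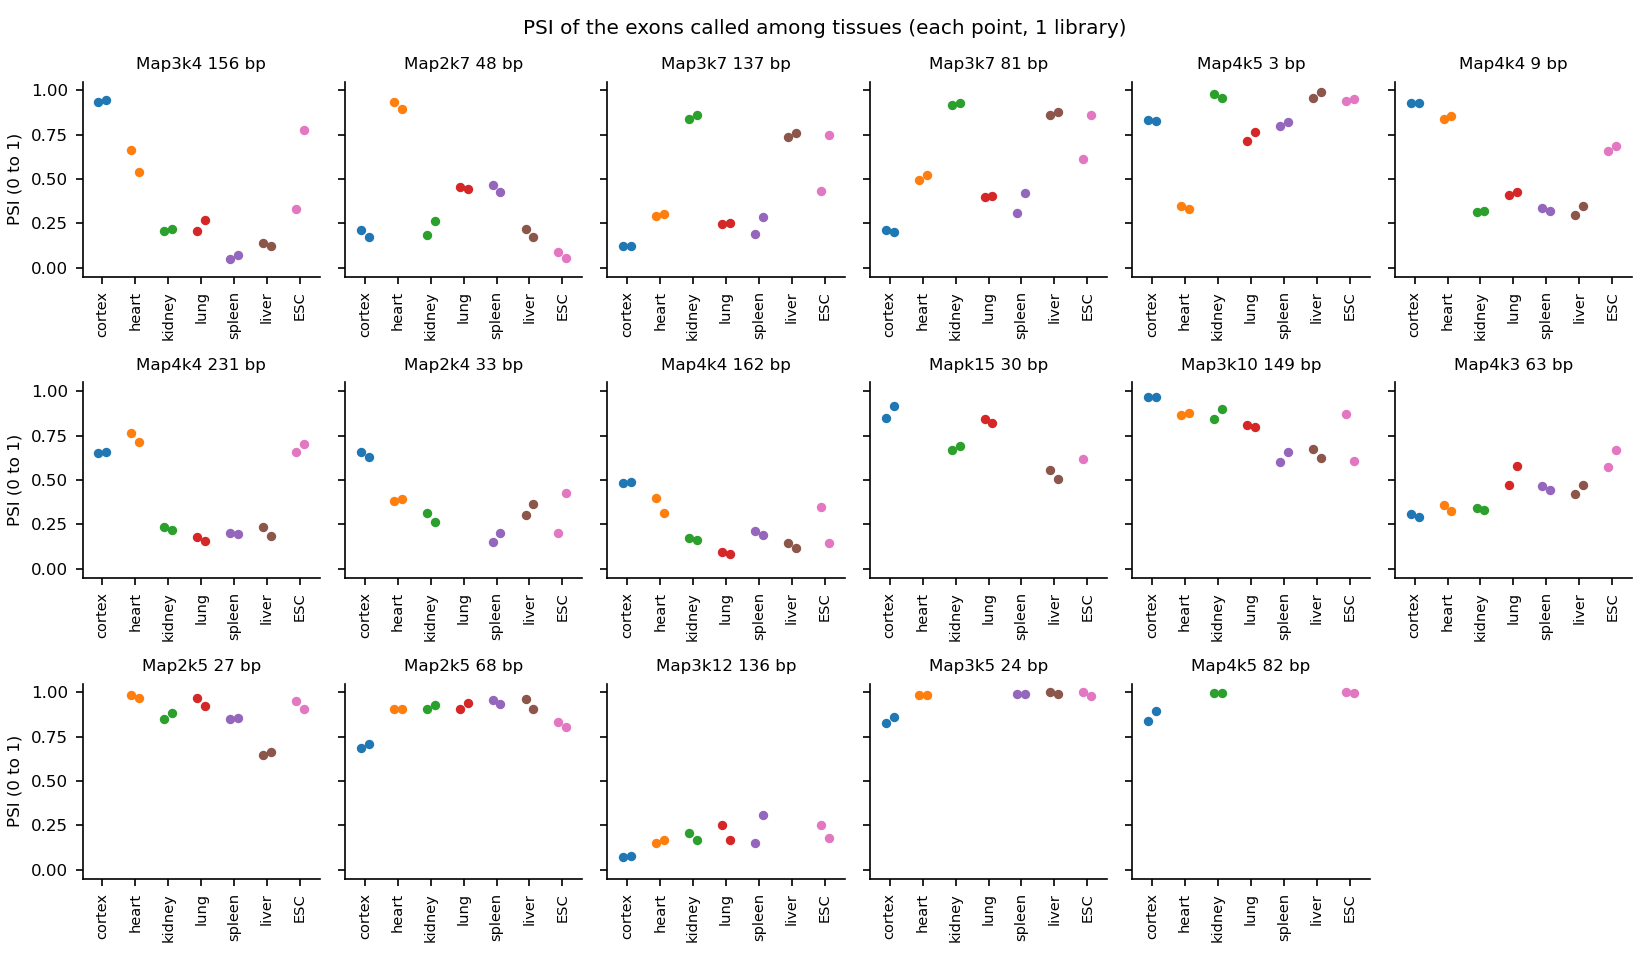
PSI (0 to 1) of the exons called among tissues, 1 panel per exon and 1 point per library with 20 or more reads. For most exons replicates sit closer together than in ESC, and the tissue that stands apart changes from exon to exon: heart for Map2k7 and Map4k5 (3 bp), kidney and liver for Map3k7, cortex and heart for Map4k4.

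Among the MAP4Ks, Map4k4, which feeds the JNK branch and cell migration, held 3 of the called exons (plus strand, mm10). Its 9-bp exon (chromosome 1, 40008331 to 40008339) had a PSI of 0.927 and 0.931 in cortex, 0.838 and 0.858 in heart, 0.658 and 0.689 in ESC, 0.413 and 0.425 in lung, 0.335 and 0.32 in spleen, 0.295 and 0.35 in liver and 0.313 and 0.318 in kidney (switch score 0.613, adjusted p = 7.02e-09). Cortex and heart lay above all other libraries, ESC came next, and kidney, spleen and liver overlapped at the bottom. The 231-bp exon (40003757 to 40003987) had a PSI of 0.768 and 0.714 in heart, 0.658 and 0.702 in ESC, 0.654 and 0.657 in cortex, 0.233 and 0.218 in kidney, 0.235 and 0.183 in liver, 0.203 and 0.198 in spleen and 0.181 and 0.158 in lung (switch score 0.571, adjusted p = 4.34e-08). Heart, cortex and ESC held most of it and the other tissues little. In a second event with the same exon but the 162-bp exon as its upstream neighbour, PSI was higher everywhere, from 0.944 in heart to 0.506 in spleen (means; switch score 0.438). The 162-bp exon itself (40001430 to 40001591) had a PSI of 0.484 and 0.487 in cortex, 0.397 and 0.316 in heart, 0.347 and 0.148 in ESC, 0.212 and 0.188 in spleen, 0.175 and 0.165 in kidney, 0.143 and 0.118 in liver and 0.0926 and 0.0819 in lung (switch score 0.398, adjusted p = 0.000985). Its ESC clones were apart from each other by more than any other pair. The 3-bp exon of Map4k5 (chromosome 12, 69820940 to 69820942, minus strand) had a PSI of 0.957 and 0.991 in liver, 0.979 and 0.957 in kidney, 0.942 and 0.949 in ESC, 0.832 and 0.83 in cortex, 0.797 and 0.824 in spleen, 0.716 and 0.763 in lung and 0.349 and 0.334 in heart (switch score 0.633, adjusted p = 3.49e-06). Heart was below every other library and the only tissue with a PSI under 0.5.

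Of the MAP3Ks, the 156-bp exon of Map3k4, an activator of the p38 and JNK branches, had the highest switch score of all member events. It lies at chromosome 17, 12242650 to 12242805, on the minus strand, and had a PSI of 0.936 and 0.943 in cortex, 0.663 and 0.542 in heart, 0.329 and 0.776 in ESC, 0.209 and 0.268 in lung, 0.206 and 0.216 in kidney, 0.139 and 0.125 in liver and 0.0474 and 0.0705 in spleen (switch score 0.88, adjusted p = 0.00129). The cortex libraries were close to full inclusion and the spleen libraries close to full skipping, while the ESC clones lay far apart. Map3k7, or TAK1, a kinase of the TGF-beta and interleukin-1 pathways, had an exon with alternative ends that is present in events of 81 and 137 bp with a shared start (31994874). The 81-bp form, which had more reads, had a PSI of 0.919 and 0.929 in kidney, 0.859 and 0.876 in liver, 0.611 and 0.861 in ESC, 0.494 and 0.523 in heart, 0.4 and 0.404 in lung, 0.308 and 0.422 in spleen and 0.213 and 0.201 in cortex (switch score 0.717, adjusted p = 0.000179). Kidney and liver were above all other libraries but 1 ESC clone, and cortex was below all. The 137-bp form followed the same order at its ends, from 0.849 in kidney to 0.123 in cortex (means; switch score 0.727). Both forms share the skipping reads and are not independent. The 149-bp exon of Map3k10, another mixed-lineage kinase (chromosome 7, 27664950 to 27665098), had a PSI of 0.966 and 0.969 in cortex, 0.842 and 0.903 in kidney, 0.866 and 0.876 in heart, 0.812 and 0.797 in lung, 0.875 and 0.605 in ESC, 0.673 and 0.625 in liver and 0.6 and 0.656 in spleen (switch score 0.339, adjusted p = 0.000405). Cortex was above all other libraries.

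Both MAP2K genes of the JNK branch had a called exon. The 48-bp exon of Map2k7 (chromosome 8, 4240688 to 4240735, plus strand) had a PSI of 0.932 and 0.896 in heart, 0.457 and 0.446 in lung, 0.465 and 0.428 in spleen, 0.182 and 0.262 in kidney, 0.22 and 0.172 in liver, 0.214 and 0.176 in cortex and 0.0873 and 0.0563 in ESC (switch score 0.842, adjusted p = 1.07e-07). Heart was far above all, lung and spleen overlapped in the middle, and ESC was lowest. The DMSO fibroblasts had a PSI of 0.794 and 0.791 for this exon, nearest to heart. The 33-bp exon of Map2k4 (chromosome 11, 65775733 to 65775765, minus strand), which the lung table does not list, had a PSI of 0.657 and 0.627 in cortex, 0.383 and 0.391 in heart, 0.301 and 0.367 in liver, 0.202 and 0.429 in ESC, 0.314 and 0.265 in kidney and 0.149 and 0.201 in spleen (switch score 0.467, adjusted p = 0.0021). Cortex was above all. Among the MAPKs only Mapk15 had a call, a 30-bp exon (chromosome 15, 75995072 to 75995101) with a PSI of 0.85 and 0.918 in cortex, 0.842 and 0.823 in lung, 0.671 and 0.692 in kidney, 0.558 and 0.508 in liver and 0.619 in the ESC library with enough reads (switch score 0.351, adjusted p = 0.00211). No JNK or p38 gene had a called exon in these SE events. Such events set an exon against skipping, so a switch between exons used in place of each other need not show. Switches of that kind were not tested. In DMSO fibroblasts the 72-bp exons of Mapk9 at 49873836 and 49874264, with the same neighbours, were each at a PSI of 1. Mapk10 had 1 event tested among tissues. The remaining calls were on Map4k3 (63 bp, switch score 0.322, highest in ESC and lowest in cortex), Map2k5 (27 bp, 0.320, heart and liver, and 68 bp, 0.247, spleen and cortex), Map3k12 (136 bp, 0.154), Map3k5 (24 bp, 0.151) and a second exon of Map4k5 (82 bp, 0.131). The last 3 were lowest in cortex, and so was the 68-bp exon of Map2k5. The call on Map3k12 ended without either cortex library (adjusted p = 0.0669 and 0.0645) and that on the 82-bp exon of Map4k5 without the first (0.0559). Without both ESC libraries 21 events were called.

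The hybrids allow the alleles to be compared within 1 library, over the same cells. An event was called here with an adjusted p under 0.05 and a difference of 0.1 or more between the mean PSI of the alleles, C57BL/6J minus SPRET/EiJ, and was kept only where the allelic reads gave a PSI within 0.1 of that from all reads. Calls were rare among the members. No event was called in cortex (of 82 tested, 9 with an unadjusted p under 0.05; 1.73% of all events were called), heart (of 55, 4 unadjusted; 1.56%), liver (of 25, 1 unadjusted; 0.922%) or ESC (of 123, 2 unadjusted; 0.0226%). Of all events, 11.3% in cortex, 10.7% in heart, 9.63% in liver and 2.68% in ESC had an unadjusted p under 0.05. There was 1 call in kidney (of 76), lung (of 87) and spleen (of 84), and it was the same exon in all 3, higher on C57BL/6J, beside 0.884%, 0.868% and 0.895% of all events called in that direction. DMSO fibroblasts had 2 calls (of 96; 1.3%) and pladienolide B fibroblasts 2 (of 103; 0.847%), again all higher on C57BL/6J.

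The shared exon is the 9-bp exon of Map4k4 that also differed among tissues. In lung its PSI was 0.652 and 0.651 on the C57BL/6J allele and 0.216 and 0.238 on the SPRET/EiJ allele (ΔPSI 0.424, adjusted p = 0.00182). In spleen it was 0.59 and 0.468 on the C57BL/6J allele and 0.0799 and 0.102 on the SPRET/EiJ allele (ΔPSI 0.438, adjusted p = 0.00234). In kidney it was 0.416 and 0.558 on the C57BL/6J allele and 0.12 and 0.089 on the SPRET/EiJ allele (ΔPSI 0.383, adjusted p = 0.0296, and 0.0636 without a depth trend in the dispersion prior). In each of these organs both C57BL/6J values were above both SPRET/EiJ values. DMSO fibroblasts had the largest difference, with 0.809 and 0.82 on the C57BL/6J allele and 0.289 and 0.301 on the SPRET/EiJ allele (ΔPSI 0.52, adjusted p = 3.16e-09). In pladienolide B fibroblasts the values were 0.637 and 0.612 on the C57BL/6J allele and 0.237 and 0.235 on the SPRET/EiJ allele (ΔPSI 0.388, adjusted p = 0.0233). The alleles did not overlap in either treatment. In cortex, where the exon was mostly included, the values were 0.958 and 0.947 on the C57BL/6J allele and 0.904 and 0.886 on the SPRET/EiJ allele (ΔPSI 0.0577, adjusted p = 0.332). In heart they were 0.906 and 0.831 on the C57BL/6J allele and 0.785 and 0.772 on the SPRET/EiJ allele (ΔPSI 0.0899, adjusted p = 0.394). The alleles lay close in these organs, still without overlap. In ESC the order was turned, with 0.645 and 0.559 on the C57BL/6J allele and 0.742 and 0.879 on the SPRET/EiJ allele (ΔPSI -0.208, adjusted p = 0.875, and 0.0476 with the library as a block). In liver, C57BL/6J was at 0.659 and 0.644 and SPRET/EiJ at 0 on 23 reads in 1 library, with 14 reads in the other, too few to test. On both alleles, cortex and heart were above kidney and spleen. Whether the allelic difference itself differed between tissues was not tested.

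**Figure D3:**
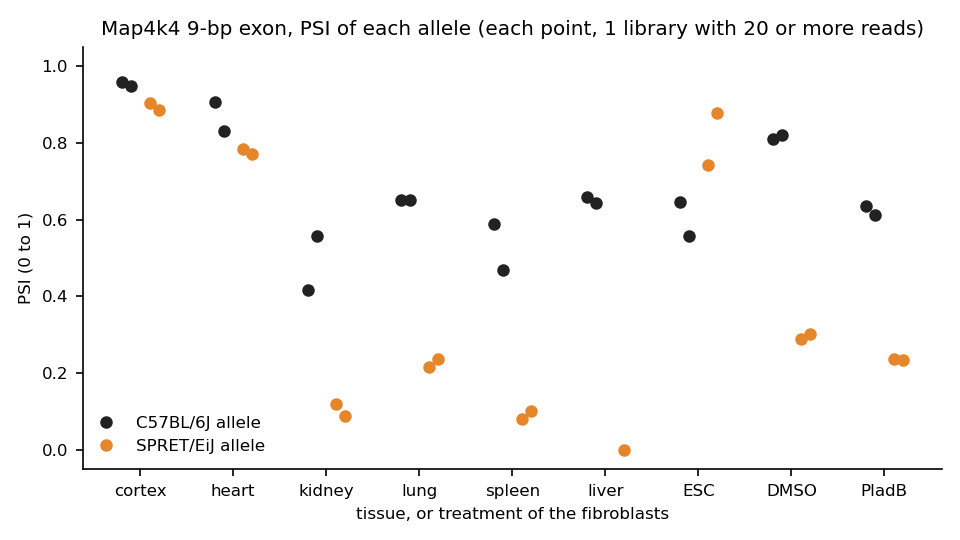
PSI (0 to 1) of the 9-bp exon of Map4k4 on the C57BL/6J and SPRET/EiJ alleles, 1 point per library with 20 or more reads. The alleles lie 0.383 to 0.52 apart (difference of means) in kidney, lung, spleen and both fibroblast treatments, are close in cortex and heart, and are in the opposite order in ESC.

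The second call in DMSO fibroblasts was on the 231-bp exon of Map4k4, in the event with the 162-bp exon upstream, at 0.824 and 0.822 on the C57BL/6J allele and 0.603 and 0.613 on the SPRET/EiJ allele (ΔPSI 0.215, adjusted p = 0.00587). In the same event the difference was above 0 in every other group tested, though none was called. It was 0.405 in kidney (on 21 and 22 C57BL/6J reads), 0.303 in spleen and 0.295 in pladienolide B fibroblasts. It was 0.157 in lung, 0.124 in cortex, 0.081 in heart and 0.066 in ESC. In the event that joins the exon to the one further upstream, the alleles differed by -0.018 in DMSO fibroblasts. The second call in pladienolide B fibroblasts was on the 202-bp exon of Mapk6, the atypical kinase ERK3 (chromosome 9, 75390167 to 75390368, minus strand). Its PSI was 1 and 0.991 on the C57BL/6J allele and 0.387 and 0.286 on the SPRET/EiJ allele (ΔPSI 0.659, adjusted p = 0.000636), on 43 and 36 SPRET/EiJ reads. In DMSO fibroblasts both alleles were near full inclusion, at 0.994 and 1 on C57BL/6J and 0.98 and 0.957 on SPRET/EiJ, and the difference was 0.0284 (adjusted p = 0.0716). In a second event with the same exon, the SPRET/EiJ PSI was 0.852 in 1 library, on 25 reads, and too few reads stood in the other. Whether pladienolide B changed the allelic difference was tested on its own, as an interaction. Of 38 member events 0 were called, as of all 13352 events (0%), with 3 members and 460 events in all at an unadjusted p under 0.05. For Mapk6 the change was 0.630 (unadjusted p = 0.0371, adjusted p = 0.988), and for the 9-bp exon of Map4k4 it was -0.131 (unadjusted p = 0.0896, adjusted p = 0.988).

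Both alleles of a library come from the same cells, so a fit with the library as a block was set beside these. That fit kept all calls above and raised the count in pladienolide B fibroblasts from 2 to 6 and in ESC from 0 to 1. The 4 added in pladienolide B fibroblasts were a 149-bp exon of Map3k11 (ΔPSI 0.422, adjusted p = 0.000810 with the block, 0.0625 without), a 61-bp exon of Map4k3 (-0.143) and the 162-bp and 66-bp exons of Map4k4 (-0.106 and -0.101). The 1 added in ESC is the 9-bp exon of Map4k4.

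After pladienolide B the TPM of most cascade genes was lower. Of 42 rows, 34 reached 1 TPM in both libraries of DMSO or of pladienolide B, and all 34 had an adjusted p under 0.05 (limma), with 30 lower (73.7% of all 13537 genes) and 4 higher (15.7%). The median log2 difference was -1.79 for the members and -1.16 for all genes. All 7 MAP2Ks, all 5 MAP4Ks, 11 of 12 MAP3Ks and 7 of 10 MAPKs were lower. Mapk14, the p38 alpha gene, fell furthest, with 46.1 and 46.2 TPM in DMSO and 2.67 and 2.82 TPM after pladienolide B, a log2 difference of -4.02 ± 0.06 (SE; adjusted p = 3.51e-06). Its upstream kinase gene Map2k6 had 2.71 and 2.62 TPM in DMSO and 0.124 and 0.178 TPM after pladienolide B, a log2 difference of -3.47 ± 0.18 (SE; adjusted p = 2.86e-05). Map3k12 had 13.3 and 13 TPM in DMSO and 1.07 and 1.36 TPM after pladienolide B, a log2 difference of -3.34 ± 0.13 (SE; adjusted p = 1.07e-05). The libraries of the treatments did not overlap for any of them. Map4k3, which responds to amino acids, had 209 and 209 TPM in DMSO and 28 and 36.3 TPM after pladienolide B, a log2 difference of -2.71 ± 0.13 (SE; adjusted p = 1.96e-05). Map4k4 had 117 and 112 TPM in DMSO and 23 and 24.6 TPM after pladienolide B, a log2 difference of -2.27 ± 0.05 (SE; adjusted p = 3.64e-06). Map2k1 had 90.3 and 87 TPM in DMSO and 27.9 and 27.1 TPM after pladienolide B, a log2 difference of -1.69 ± 0.04 (SE; adjusted p = 4.1e-06). These levels again did not overlap between treatments.

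The 4 higher members included Map3k8, which had 4.72 and 4.51 TPM in DMSO and 9.22 and 9.82 TPM after pladienolide B, a log2 difference of 1.03 ± 0.07 (SE; adjusted p = 8.63e-05). Mapk7 had 19.2 and 18.2 TPM in DMSO and 34.8 and 33.4 TPM after pladienolide B, a log2 difference of 0.86 ± 0.05 (SE; adjusted p = 5.07e-05). Mapk13 had 25.9 and 26.5 TPM in DMSO and 28.9 and 29.6 TPM after pladienolide B, a log2 difference of 0.16 ± 0.05 (SE; adjusted p = 0.0219). Mapk3 had 227 and 220 TPM in DMSO and 245 and 241 TPM after pladienolide B, a log2 difference of 0.12 ± 0.04 (SE; adjusted p = 0.0245). The rise was large for the first pair and small for the second. The calls of the second pair were lost without the first DMSO library (log2 difference of Mapk13 0.139, of Mapk3 0.144) or the second (0.177 and 0.0968), and that of Mapk3 without the first pladienolide B library (0.110). Others that were lower were Map3k2 (-2.68), Map3k3 (-2.58), Map4k5 (-2.57), Map2k5 (-2.49), Map3k5 (-2.39), Map2k4 (-2.36), Map3k4 (-2.33), Map3k14 (-2.32), Mapk8 (-1.97), Map2k7 (-1.87), Map3k1 (-1.86), Map4k1 (-1.79), Map2k3 (-1.78), Mapk12 (-1.55), Map3k6 (-1.53), Mapk6 (-1.52), Map4k2 (-1.26), Mapk11 (-1.10), Map3k7 (-0.94), Mapk9 (-0.87), Map2k2 (-0.80), Map3k10 (-0.57) and Map3k11 (-0.47). Centring the libraries on their medians moves every difference by 1.45, and 11 members were then higher and 19 lower (51.4% and 36.4% of all genes). On that scale Map3k8 was at 2.48, Mapk7 at 2.31, Mapk13 at 1.60, Mapk3 at 1.57 and Mapk14 at -2.58. The direction flipped to above 0 for Map3k11, Map3k10, Map2k2, Mapk9, Map3k7, Mapk11 and Map4k2. Relative to the median of all genes, 11 of 34 members were higher. Of the 3 fibroblast markers, Pdgfra averaged 439 TPM in DMSO and 82.7 TPM after treatment, Col1a1 1065 and 1031 TPM and Col1a2 1086 and 1248 TPM. Their part was not tested.

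**Figure D4:**
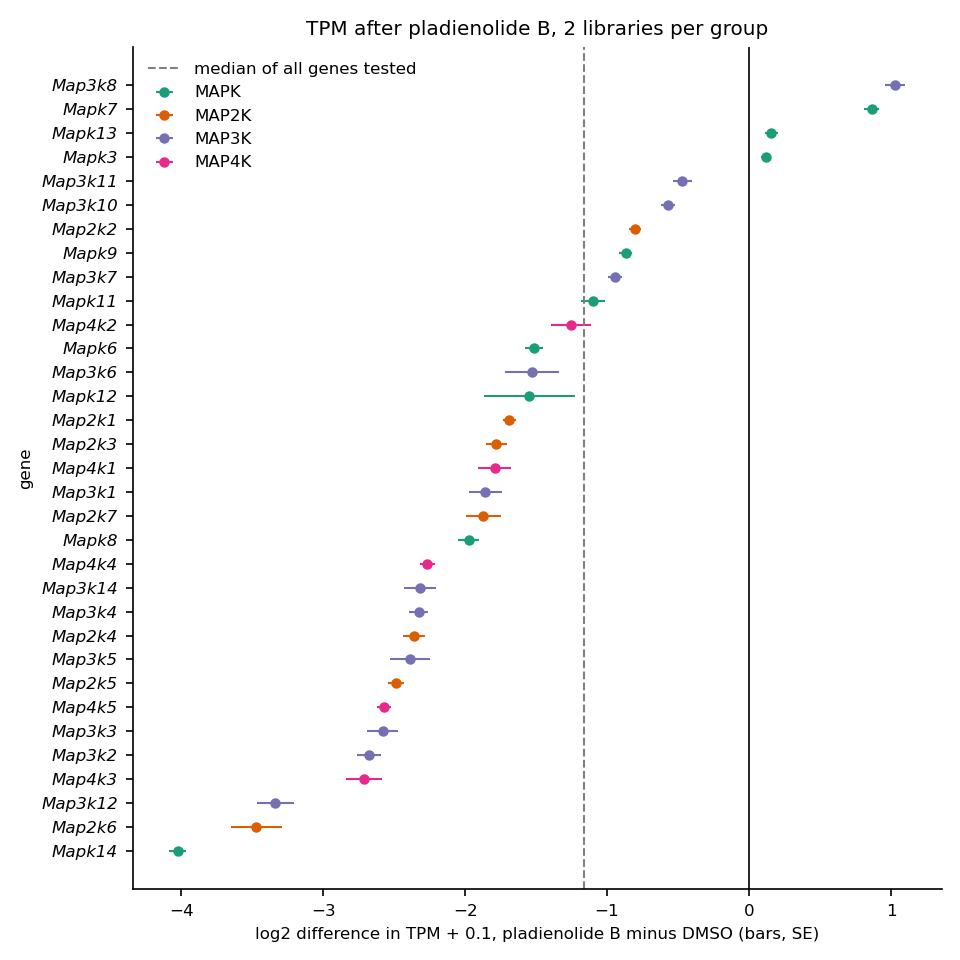
Log2 difference in TPM + 0.1, pladienolide B minus DMSO, for the genes reported here (points, coloured by tier; bars are the standard error; 2 libraries per treatment). Map3k8 and Mapk7 lie clearly to the right of 0, Mapk14 furthest to the left, and the dashed line at -1.16 is the median of all genes tested.

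In the pathway list, 50 of 58 genes were tested after pladienolide B, 8 were higher and 35 lower, beside 15.7% and 73.7% of all genes, which also stand beside the counts of its groups. With centred libraries the counts were 21 and 20 (51.4% and 36.4% of all genes). Targets of the cascade among the transcription factors ran both ways, with 5 of 11 higher and 5 lower. Junb rose by 1.60 ± 0.03 and Fosb by 1.49 ± 0.52, and Atf2 (-2.33 ± 0.06) and Elk4 (-2.28 ± 0.07) were lowest. Junb was at 299 and 293 TPM in DMSO and 886 and 913 TPM after treatment. Of the phosphatases, 3 of 8 were higher, with Dusp5 (0.59 ± 0.09) and Dusp7 (0.31 ± 0.09) leading, and 3 lower, led by Dusp10 (-2.93 ± 0.10) and Dusp16 (-1.87 ± 0.09). Of Ras and Raf, 5 of 6 were lower and none higher, Nras (-2.97 ± 0.06) among them. All 3 adaptors of Map3k7 were lower, Tab1 (-3.65 ± 0.12) and Tab3 (-2.76 ± 0.07) the most. Of the downstream kinases 9 of 10 were lower, led by Mapkapk3 (-3.61 ± 0.08) and Mknk2 (-2.98 ± 0.05), of the scaffolds 4 of 5, led by Ksr1 (-2.93 ± 0.10) and Lamtor3 (-2.41 ± 0.10), and of the inhibitors 4 of 5, led by Spred1 (-2.71 ± 0.06) and Spred2 (-1.63 ± 0.11). Both related kinases Tnik (-1.61 ± 0.17) and Mink1 (-1.57 ± 0.07) were lower. With centred libraries the split into higher and lower was 6 and 3 for the transcription factors, 6 and 2 for the phosphatases, 2 and 4 for Ras and Raf, 0 and 2 for the adaptors, 2 and 6 for the downstream kinases, 3 and 2 for the scaffolds, 2 and 1 for the inhibitors and 0 and 0 for the related kinases.

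Exon inclusion after pladienolide B was tested over SE events with 20 or more reads in each of the 4 fibroblast libraries. Of 236 member events in 29 genes, 21 were called, all with lower inclusion, or 8.90% beside 8.14% of all 54535 events. No member event was called with higher inclusion, against 0.165% of all. An unadjusted p under 0.05 was found for 101 (42.8%), against 30.3% of all events. Of the 236 events, 191 had a difference below 0, and the median was -0.0153, against -0.00524 for all events. The 21 lay on 19 exons of 11 genes, and 17 of those exons had a mean PSI of 0.9 or more in DMSO, as did 169 of the 183 member exons tested. Of the 19 exons, 9 have a length that is a multiple of 3, as have 68 of the 183 tested.

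Map3k11, a mixed-lineage kinase that feeds the JNK branch, had 3 called exons. Its 149-bp exon (chromosome 19, 5695497 to 5695645, plus strand, between introns of 155 and 86 bp) had a PSI of 1 and 1 in DMSO and 0.232 and 0.276 after pladienolide B (ΔPSI -0.746, adjusted p = 6.62e-08), on 101 and 88 junction reads after treatment. All DMSO reads held the exon and most treated ones skipped it. The 92-bp exon of the same gene had a PSI of 1 and 1 in DMSO and 0.543 and 0.93 after pladienolide B (ΔPSI -0.263, adjusted p = 0.00233). Its treated libraries were far apart. The 191-bp exon of Map3k4 (chromosome 17, 12277921 to 12278111) was at 0.943 and 0.947 in DMSO and 0.472 and 0.503 after pladienolide B (ΔPSI -0.457, adjusted p = 4.42e-07), and is another exon than that called among tissues. The 149-bp exon of Map3k10 was at 0.844 and 0.821 in DMSO and 0.518 and 0.565 after pladienolide B (ΔPSI -0.291, adjusted p = 0.000148). In a second event with this exon the difference was -0.298. The 132-bp exon of Map3k3 was at 0.997 and 0.999 in DMSO and 0.874 and 0.703 after pladienolide B (ΔPSI -0.210, adjusted p = 0.000863). In all of these the treated libraries lay below both DMSO libraries.

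Mapk6 also had 3 called exons. Its 145-bp exon (chromosome 9, 75395510 to 75395654) was at 1 and 0.998 in DMSO and 0.745 and 0.708 after pladienolide B (ΔPSI -0.273, adjusted p = 5.56e-07). Its 202-bp exon, the one that differed between alleles after treatment, was at 0.991 and 0.986 in DMSO and 0.815 and 0.856 after pladienolide B (ΔPSI -0.153, adjusted p = 9.94e-05), and its 165-bp exon differed by -0.120. None of the 3 called events overlapped between treatments. Other events with these exons differed less and were not called. With the 145-bp exon they differed by -0.083 and -0.043, and with the 202-bp exon by -0.042, -0.030 and -0.0049. With the 165-bp exon they differed by -0.087 and -0.037, the latter on the most reads, 4782 against 2718 in the called event. Of the MAP2Ks, the 27-bp exon of Map2k5 was at 0.993 and 1 in DMSO and 0.863 and 0.603 after pladienolide B (ΔPSI -0.264, adjusted p = 0.000157) on 42 and 64 junction reads, and a second event with this exon differed by -0.242. The 46-bp exon of Map2k4 was at 1 and 1 in DMSO and 0.836 and 0.851 after pladienolide B (ΔPSI -0.157, adjusted p = 3.77e-05). Map2k4 activates the JNK branch and Map2k5 activates Mapk7. The 9-bp exon of Map4k4 was at 0.615 and 0.623 in DMSO and 0.484 and 0.514 after pladienolide B (ΔPSI -0.120, adjusted p = 0.0499). The remaining calls were on Map3k11 (114 bp, -0.185), Map2k5 (40 bp, -0.160), Map3k3 (122 bp, -0.137), Map4k5 (3 bp, -0.129), Map4k4 (231 bp, -0.116, and 66 bp, -0.110), Map2k3 (96 bp, -0.109) and Mapk8 (121 bp, -0.101). In another event with more reads (3576 against 765) the 66-bp exon of Map4k4 differed by -0.088 and was not called. The TPM of all 11 genes was lower after treatment, and fewer reads stood behind each treated PSI than behind that of DMSO.

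Several of these calls rest on 1 library. Without the first pladienolide B library the 114-bp exon of Map3k11 had a difference of 0, and calls ended for its 92-bp exon (-0.0697), the 27-bp exon of Map2k5 in 1 of its 2 events (-0.231), the 3-bp exon of Map4k5 (-0.103), the 231-bp (-0.0988) and 9-bp (-0.105) exons of Map4k4, Map2k3 (-0.097) and Mapk8 (-0.097). Without the second, the 40-bp exon of Map2k5 had a difference of 0.0031, and calls ended for the same event of its 27-bp exon (-0.253), the 165-bp exon of Mapk6 (-0.0588), the 66-bp (-0.0333) and 9-bp (-0.135) exons of Map4k4, the 122-bp (-0.0513) and 132-bp (-0.124) exons of Map3k3 and the 3-bp exon of Map4k5 (-0.154). Without a DMSO library the calls on Map4k5 (-0.123, first left out) and on the 9-bp exon of Map4k4 (-0.124 and -0.116) ended. The calls on the 149-bp exons of Map3k11 and Map3k10, the 191-bp exon of Map3k4, the 145-bp and 202-bp exons of Mapk6 and the 46-bp exon of Map2k4 held whichever library was left out.

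**Figure D5:**
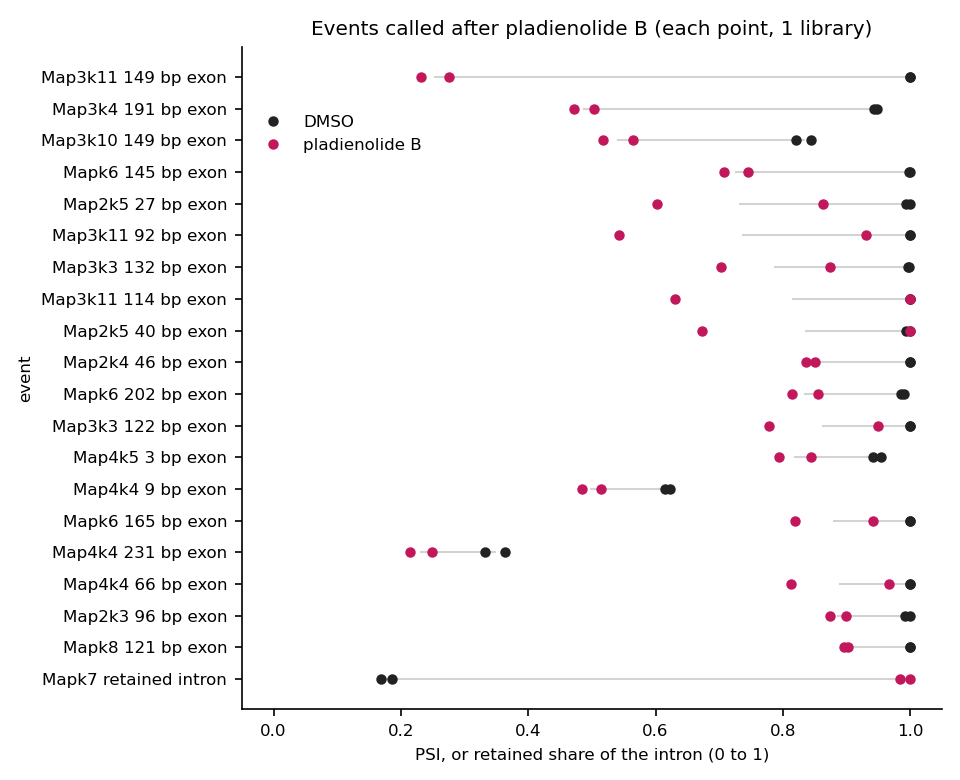
PSI, or retained share for the intron (0 to 1), of the events called after pladienolide B, with 1 point per library and a line between the means. Where several called events share an exon, the one with the most reads is drawn. The Map3k11 149-bp exon goes from 1 to 0.232 and 0.276, and the Mapk7 intron goes the other way.

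Of the 21 events, 5 were also called among tissues, or 23.8% of the pladienolide B calls and 27.8% of the tissue calls, beside 8.32% and 10.4% for all events (377 shared of 4530 and 3629). The member events lie on few genes and some share an exon, and the overlap was not tested. They were the 9-bp and 231-bp exons of Map4k4, the 3-bp exon of Map4k5 and the exons of Map2k5 (27 bp) and Map3k10 (149 bp). Intron retention was tested over 14 of the 15 member RI events, in 5 genes. Of these 3 were called, all with higher retention, beside 35.2% of all 1802 events with higher and 3% with lower retention. An unadjusted p under 0.05 was found for 7 (50%), against 59.6% of all. The 3 events describe 1 region of Mapk7, the ERK5 gene (chromosome 11, 61492904 to 61494266, minus strand), with introns that overlap, so they are not independent. The intron at 61493070 to 61493646 was retained in 179 and 165 reads and spliced in 442 and 362 in DMSO. After pladienolide B it was retained in 1222 and 1320 reads and spliced in 0 and 11. The retained share rose from 0.168 and 0.186 to 1 and 0.984 (difference 0.815, adjusted p = 2.4e-15). With other 5′ ends of that intron, at 61493523 and 61493505, the differences were 0.491 and 0.451. The reads over the event were more after treatment, and so was the TPM of Mapk7. No treated library overlapped with DMSO in any of the 3 events.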

How the data were processed

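RNA-seq libraries of 7 tissues (ESC included) and of fibroblasts under 2 treatments, with 2 libraries in each of the 9 groups, were used. Groups were taken from the sample labels. The authors aligned stranded reads to mm10 with HISAT2 2.0.1 and assigned them to alleles by strain variants. They deposited gene expression in TPM, from fractional read counts per gene of Ensembl release 74. They also deposited rMATS tables of junction read counts per SE or RI event, for all reads and for each allele, in which the replicates of a group are entries of 1 list. These were read by their position in it. Columns with the authors' own p-values, FDR and inclusion levels were not used.

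TPM was tested as log2(TPM + 0.1) with limma 3.58.1 (eBayes with a mean trend, R 4.3.3) over genes at 1 TPM or more in both libraries of a group. This scale understates changes of low genes. PSI was the length-corrected share of inclusion reads. Inclusion and skipping reads were tested in a quasi-binomial logistic model with dispersions moderated across events by limma toward a prior that follows depth, with a minimum of 1, in Python 3.11.15. Autosomal events with 20 reads or more per library entered, the prior came from events with 5 expected reads or more of each form, and p-values were adjusted by Benjamini-Hochberg over all features tested. Allelic calls also needed a PSI within 0.1 of that of all reads. Called members were named, largest first (up to 30 genes or 25 events), with values per library for up to 10, beside the leading gene of each tier by mean TPM. Of other pathway genes, the 2 largest called changes in each direction were named. Where called events share an exon, the one with the most reads was described. The members, lists and tests were chosen with earlier results of these data known.

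On simulated data 39.5% to 53% of changed events were recovered between alleles (a change of 1.5 on the logit scale, 200 events). After pladienolide B 49% of SE and 78% of RI events were recovered, and 38.5% for the interaction. Among tissues 81% of SE events were recovered, in a simulation of 7913 events, while the test itself covered 47963. That rate need not hold for the other events tested. For exons near full inclusion the rates may be lower. Of the 183 member exons tested after pladienolide B, 169 had a mean PSI of 0.9 or more in DMSO. For TPM 66.3% of log2 changes of 1 and 89.4% of 2 were recovered among tissues, and 78.1% and 95.9% after pladienolide B. Allelic junction reads per library were 10603054 to 46793808 (C57BL/6J) and 10338947 to 43070354 (SPRET/EiJ) in tissues, and 30863221 to 48555783 and 27056558 to 41716487 in fibroblasts.

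Both alleles of a library share its cells, so they are paired by design (correlation of their replicate deviations 0.055 to 0.497, over 0.1 in 7 of 9 groups). Alternatives were the replicate block, minimums of 10 and 50 reads, a pseudocount of 1, no filter, no depth trend, a spread shared by all groups, and each library left out. Centring each library on its median and leaving out both ESC libraries were added after seeing the data. A member and another gene of the pathway are counted but not reported here by name. Sequences were not used here.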

Additional observations from a re-analysis of the deposited data

Results flagged for a closer look

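The allelic difference of the 9-bp exon of Map4k4 (C57BL/6J minus SPRET/EiJ) was above 0 in both libraries of cortex (0.0577), heart (0.0899), kidney (0.383), lung (0.424), spleen (0.438), DMSO fibroblasts (0.52) and pladienolide B fibroblasts (0.388), and below 0 in both ESC clones (-0.208). The difference between ESC and the other groups was not tested. For the 202-bp exon of Mapk6 both libraries were above 0 in kidney (0.0113), spleen (0.0158), DMSO fibroblasts (0.0284) and pladienolide B fibroblasts (0.659), and both were below 0 in lung (-0.0134). This difference was not tested either, apart from that between the treatments (adjusted p = 0.988).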

How the results depend on the processing

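Between alleles, 25 to 123 member events had enough reads on both alleles to be tested. With 50 reads 13 events were called after pladienolide B instead of 21, and 0 instead of 2 between alleles in pladienolide B fibroblasts. With the library as a replicate block these were 6, and the ESC alleles had 1 call instead of 0. The block changed no other count by over 1.5 times. Without a depth trend of the prior the kidney alleles had 0 calls instead of 1. Centring each library on its median, chosen after seeing the data, left 16 calls instead of 31 in liver. It turned the liver differences of Map3k11 (0.697), Map3k7 (0.679), Map4k3 (0.597), Map2k1 (0.50), Map3k8 (0.30), Map2k7 (0.29), Map3k4 (0.25), Map3k5 (0.197) and Map4k5 (0.0109) above 0. After pladienolide B it did so for Map3k11 (0.977), Map3k10 (0.876), Map2k2 (0.643), Mapk9 (0.577), Map3k7 (0.504), Mapk11 (0.347) and Map4k2 (0.191). Leaving out 1 library gave 3 to 5 calls for introns (5 without the first pladienolide B library), 16 to 30 for exons after pladienolide B, 16 to 21 for exons among tissues and 32 to 34 for TPM after pladienolide B. The 114-bp exon of Map3k11 ran from -0.37 to 0 and the 40-bp exon of Map2k5 from -0.324 to 0.0031, with the upper ends without the first and the second pladienolide B library. With a pseudocount of 1 the differences of Map3k8 in cortex (-0.967) and kidney (-0.826), Mapk9 in heart (-0.978), Map3k14 (0.99) and Map3k15 (0.957) in lung, Mapk7 (0.915), Map3k11 (0.977) and Map4k3 (-0.984) in spleen, Mapk15 in liver (0.628) and Map3k12 (0.742) and Map3k6 (0.753) in ESC fell under the size limit. Without a depth trend the pladienolide B calls on Map4k5 (3 bp, adjusted p = 0.0619) and Map4k4 (9 bp, 0.0691) ended. Between alleles, leaving out a library leaves no test, and each called event kept a difference of 0.1 or more. Where leaving out a library left 1 sample in a group, that sample was assumed to vary like the others. Of 3137 values for named genes and events under these alternatives, 3017 kept their direction and their side of the threshold, 102 fell short of it and 18 changed direction. The causes were not tested. The organs share 2 mice, but no label ties a replicate number to a mouse, and same-numbered libraries of different tissues or treatments deviated with correlations of -0.103 to 0.179.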
